A study of Mus musculus with 2 samples.

Results

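The genes described here are 9 genes of the integrated stress response and of serine metabolism, namely Atf4, Ddit3, Trib3, Asns, Phgdh, Psat1, Shmt2, Mthfd2 and Xbp1. They were matched by symbol, and all 9 were found among the 32245 gene symbols of the count matrices. Their levels were measured by single-cell RNA sequencing in CD8+ tumor-infiltrating lymphocytes (TIL), the cytotoxic T cells found inside a tumor. The question addressed is how these genes differ between states of the T cells, and between TIL of lean and of obese mice.

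The TIL came from B16 F0 tumors, a transplanted mouse melanoma, 14 days after transplantation into male C57Bl/6J mice. Lean mice had been fed normal chow (NC) and obese mice a western diet (WD) for 12 weeks, and the labels give an age of 16 weeks for both. Cells were enriched with CD8 magnetic beads and sorted by flow cytometry on CD8. There was 1 library per diet, and neither the labels nor the study's methods say how many mice each holds. The sources name no transgene or deletion in these mice. With 1 library per diet no test between diets is possible, so every difference below compares these 2 libraries, and every 95% interval covers counting error only.

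The integrated stress response begins when kinases that sense amino acid shortage, unfolded protein, heme lack or viral RNA phosphorylate the translation factor eIF2alpha. General protein synthesis then falls while the mRNA of Atf4 is translated more, and the ATF4 protein induces genes for amino acid uptake and synthesis. In T cells, serine and mitochondrial folate metabolism supplies carbon units for nucleotide synthesis, and these enzymes are known to increase when T cells divide. The counts report mRNA only, and see neither the translation of Atf4 nor the splicing of Xbp1 mRNA by which that factor is activated.

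Molecules were counted by unique molecular identifiers (UMIs), the tags that mark single RNA copies before amplification. After cells were limited to under 7.5% mitochondrial UMIs and to over 500 and under 50000 UMIs, 2456 cells with 27815785 UMIs remained in the Lean library and 2289 cells with 28705830 UMIs in the Obese library. The median kept cell held 7958 UMIs in the Lean library and 9103 in the Obese library. The libraries shared 2 barcodes among kept cells. All 7 of the CD8 T cell markers examined were detected, with summed levels of 6027 and 5304 CPM, the UMIs of a gene for every 1000000 UMIs of the same cells, in the Lean and Obese libraries. The CD4, B and melanoma marker lists stayed at or below 4.22 CPM in either library, and myeloid markers at 16.4 and 20.97 CPM. NK or gamma-delta T cell markers summed to 6.15 and 5.68 CPM and dendritic-like markers to 98.6 and 206 CPM. Hemoglobin genes had 0 UMIs in the Lean library and 9193 in the Obese library, of which 9157 came from 1 cell that held 0 UMIs of the 9 genes.

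Clusters were built without the 9 genes, so that these did not define the groups in which they are compared. Cluster 0 (1178 cells) was led by Ifit3, Gzma and Ifit1 and is called interferon-stimulated-like. Its leading genes also held Ccl5 and Ccr2. Its interferon-stimulated-like markers summed to 1250 CPM and its naive- or memory-like markers to 1488 CPM, so the name covers only part of its profile. Cluster 1 (1056 cells) was led by Pclaf, Birc5 and histone genes and is called proliferating-like. Cluster 2 (998 cells) was marked by Lef1 and Tcf7 and is called naive- or memory-like. Cluster 3 (927 cells) was led by granzyme genes such as Gzmd and Gzme and is called effector-like. Cluster 4 (556 cells) had a median of 2309.5 UMIs per cell and stayed unnamed, and cluster 5 (30 cells) is called dendritic-like from Siglech, H2-Aa and H2-Ab1. The median depth of a cell ran from 2309.5 UMIs in cluster 4 to 22569.5 UMIs in cluster 1, with 5942 UMIs in cluster 0. Levels are therefore given as CPM of summed UMIs rather than as counts per cell.

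Atf4, which encodes the transcription factor at the center of the integrated stress response, was higher in the Obese library in every one of clusters 0 to 4. Over all kept cells it stood at 143 CPM (3988 UMIs) in the Lean library and at 186 CPM (5353 UMIs) in the Obese library. The log2 ratio of Obese over Lean was 0.38 (95% interval 0.32 to 0.44). The median share of mitochondrial UMIs per kept cell was also higher in the Obese library, at 2.64% against 2.10% in the Lean library. By cluster, from 0 to 4, it was 2.11, 1.75, 2.68, 1.71 and 3.47% in the Lean and 2.42, 2.34, 3.24, 2.56 and 3.80% in the Obese library. Its part in the Atf4 difference was not tested. The gene (ENSMUSG00000042406) lies on chromosome 15 from 80255184 to 80257541 on the plus strand. All positions of genes are those of the GENCODE M21 annotation of GRCm38, since the count files themselves name no build.

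By cluster, Atf4 was at 159 CPM in the Lean and 199 CPM in the Obese library in the interferon-stimulated-like cluster, with a log2 ratio of 0.32 (0.16 to 0.49). Proliferating-like cells held 129 and 166 CPM, and their log2 ratio was 0.37 (0.28 to 0.47). Naive- or memory-like cells held 113 and 155 CPM, and their log2 ratio was 0.46 (0.28 to 0.63). These 3 clusters thus differed between the libraries by similar amounts. The effector-like cluster had the smallest difference, 137 against 153 CPM, with a log2 ratio of 0.17 (0.03 to 0.30). Within a library, Atf4 in clusters 0 to 3 spanned only 113 to 159 CPM (Lean) and 153 to 199 CPM (Obese), and the naive- or memory-like and effector-like clusters of the Obese library had overlapping intervals.

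Cluster 4 stood apart for Atf4, with 512 CPM in the Lean and 737 CPM in the Obese library and a log2 ratio of 0.53 (0.35 to 0.70). Against clusters 0 to 3 together, that is a 3.90-fold higher level (3.52 to 4.31) in the Lean library and a 4.37-fold higher level (4.01 to 4.75) in the Obese library. The same cells had 10712 and 12720 CPM of Gm26917, a transcript at 135 to 332 CPM in clusters 0 to 3, and a shallow median depth. Their part in the Atf4 level of cluster 4 was not tested. At least 2-fold higher levels in cluster 4 than in clusters 0 to 3 were found for 44.1% of all genes tested in the Lean library and 36.9% in the Obese library, and among the 8 of the 9 genes tested for Atf4 alone in each library. Without clusters 4 and 5, the log2 ratio of Atf4 between libraries was 0.36, close to the value over all cells. In the dendritic-like cluster, with 27 and 74 UMIs of Atf4, it was 0.06 (-0.59 to 0.76).

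**Figure D1:**
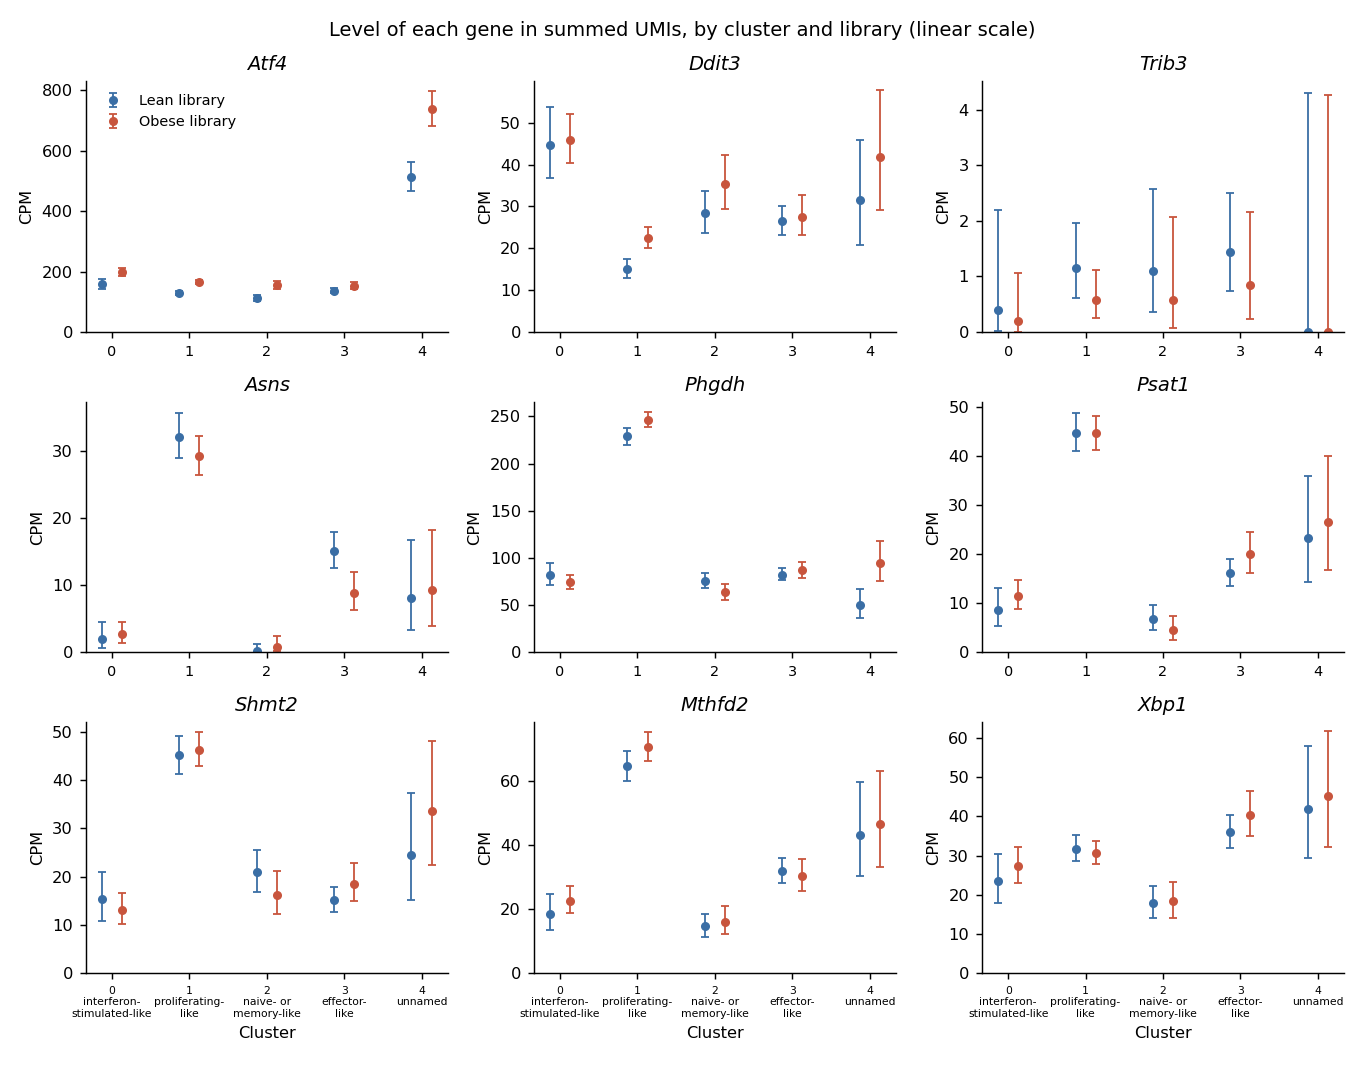
Level of each of the 9 genes in CPM (linear axis from 0, a separate scale for each gene) in clusters 0 to 4 of the Lean (blue) and Obese (red) libraries. Points are CPM of summed UMIs, bars exact Poisson 95% intervals. Asns, Phgdh, Psat1, Shmt2 and Mthfd2 were highest in cluster 1, Atf4 was highest in cluster 4, and Ddit3 was lowest in cluster 1.

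Ddit3 encodes CHOP, a transcription factor induced downstream of ATF4 under lasting stress. Over all kept cells it was at 23.8 CPM (661 UMIs) in the Lean and 29.8 CPM (854 UMIs) in the Obese library, a log2 ratio of 0.32 (0.18 to 0.47). It differed from the enzymes below in its pattern over cell states. The interferon-stimulated-like cluster had the highest level, 44.7 CPM in the Lean and 45.9 CPM in the Obese library, with a log2 ratio of 0.04 (-0.29 to 0.37). The proliferating-like cluster had the lowest level, 14.9 CPM in the Lean and 22.4 CPM in the Obese library, and also the clearest difference, a log2 ratio of 0.59 (0.31 to 0.86). Naive- or memory-like cells held 28.4 and 35.4 CPM, with 0.32 (-0.05 to 0.69) as the log2 ratio. Effector-like cells held 26.4 and 27.6 CPM, with 0.06 (-0.26 to 0.38) as the log2 ratio. The difference over all cells therefore had its firmest counterpart in the proliferating-like cells, and whether the clusters differ in this ratio was not tested.

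Ddit3 lies on chromosome 10 from 127290774 to 127296288 on the plus strand. The matrices list it under 2 identifiers, of which the second held 0 UMIs, and both were summed. In the annotation its end overlaps that of Mars on the opposite strand, and Mars was at 14.7 and 17.2 CPM in the Lean and Obese libraries.

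Trib3 encodes a pseudokinase induced by ATF4 and CHOP that feeds back on both. It was nearly undetected, with 31 UMIs in the Lean and 15 UMIs in the Obese library, or 1.11 and 0.523 CPM. The log2 ratio was -1.09 (-2.09 to -0.16), in the opposite direction to Atf4 and Ddit3, and it rests on 28 and 15 cells with a UMI. Cluster 3 held 12 and 4 of these UMIs and cluster 1 held 13 and 8. Trib3 was the only one of the 9 genes below the minimum of 10 CPM in both libraries, which the other 8 passed.

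Asns encodes asparagine synthetase, which makes asparagine from aspartate and glutamine and is a classical ATF4 target. Asns and Trib3 were the only genes of the 9 whose RefSeq promoter window (250 bases before to 50 after the start, GRCm38.p6) held the core of the composite element bound by ATF4 and C/EBP factors, searched on both strands as TGATGNAA. The 30 bases around each match are shown because only these 2 windows held it, with the match in capitals and each run written 5′ to 3′ on the strand of its gene.
Trib3, chr2:152344028-152344057, minus strand: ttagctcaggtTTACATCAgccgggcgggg
Asns, chr6:7693214-7693243, minus strand: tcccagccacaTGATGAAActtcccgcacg
In Trib3 the match reads on the opposite strand and begins 14 bases after the RefSeq start, and in Asns it reads along the gene and begins 23 bases before that start. The same letters occur in 3.97% of 32851 promoter windows. Of the other motifs searched, TGACGTGG occurred in 0.676%, CACGTG in 7.15% and the ER stress element (CCAAT and CCACG with 9 bases between) in 0.119% of the windows, and none of them was found in a window of the 9 genes. A match is a description of these letters and not a binding site.

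Asns showed the sharpest restriction to cell states. In the proliferating-like cluster it was at 32.2 CPM (366 UMIs) in the Lean and 29.2 CPM (411 UMIs) in the Obese library. The effector-like cluster followed with 15.1 CPM (126 UMIs) and 8.84 CPM (42 UMIs). The naive- or memory-like cluster held 1 UMI in 579 Lean cells and 3 UMIs in 419 Obese cells, and the interferon-stimulated-like cluster 5 and 14 UMIs. In the shallow cluster 4, a UMI of Asns was seen in 7 of 307 Lean and 8 of 249 Obese cells. At that depth, a low share of cells does not mean a lower CPM than in the effector-like cluster. Among clusters 0 to 3, Asns was thus counted mainly in dividing and effector-like cells of both libraries.

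Between libraries, Asns over all cells was at 18.2 and 16.7 CPM, a log2 ratio of -0.12 (-0.31 to 0.06). For proliferating-like cells the log2 ratio was -0.14 (-0.34 to 0.07). Effector-like cells had a log2 ratio of -0.77 (-1.31 to -0.25), the only ratio of a gene with at least 10 UMIs in each library, over the 5 larger clusters, whose interval lay below 0. At a finer clustering (resolution 0.8) the ratio in the corresponding cluster was -0.47 (-1.14 to 0.16), an interval that includes 0. Among cells outside cluster 1 that were scored as G1, Asns was at 8.35 CPM in the Lean and 4.28 CPM in the Obese library, a log2 ratio of -0.96 (-1.45 to -0.50). That group mixes clusters whose shares differ between the libraries, since 623 Lean and 304 Obese cells fell into the effector-like cluster. Asns counts were concentrated in few cells, and the 10 cells with most UMIs held 17.6% of them in the Lean and 18.4% in the Obese library. The gene (ENSMUSG00000029752) lies on chromosome 6 from 7675169 to 7693254 on the minus strand.

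Phgdh and Psat1 encode the first 2 enzymes of serine synthesis from the glycolytic intermediate 3-phosphoglycerate. Both were higher in the proliferating-like cluster than in each of clusters 0, 2, 3 and 4, in both libraries. Phgdh (chromosome 3, 98313170 to 98339990, minus strand) was at 229 CPM in the Lean and 246 CPM in the Obese library in the proliferating-like cluster. In the interferon-stimulated-like, naive- or memory-like and effector-like clusters it lay between 64.0 and 87.2 CPM. Psat1 (chromosome 19, 15904678 to 15947337, minus strand) was at 44.7 CPM (Lean) and 44.6 CPM (Obese) in the proliferating-like cluster. The effector-like cluster had 16.1 and 20.004 CPM of Psat1, and the naive- or memory-like cluster 6.82 and 4.57 CPM. Among these 3 clusters the order for Psat1 was thus proliferating-like, effector-like and then naive- or memory-like, and their intervals did not overlap. Clusters 0 and 4 were not placed in this order.

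Between libraries, Phgdh over all cells was at 140 CPM in the Lean and 160 CPM in the Obese library, a log2 ratio of 0.19 (0.13 to 0.25). With both libraries weighted to the same mix of clusters this ratio was 0.07. Within clusters it was 0.11 (0.03 to 0.18) in the proliferating-like cells, 0.08 (-0.10 to 0.26) in the effector-like cells, -0.15 (-0.40 to 0.10) in the interferon-stimulated-like cells and -0.24 (-0.49 to 0.01) in the naive- or memory-like cells. Thinned to 2000 UMIs per cell, the ratio in the proliferating-like cells was -0.08. The unnamed cluster 4 was the exception, with 50.1 CPM (43 UMIs) in the Lean and 94.98 CPM (82 UMIs) in the Obese library and a log2 ratio of 0.92 (0.37 to 1.49). Of the cells of cluster 4, 190 Lean and 119 Obese were scored as G1, 59 and 65 as S, and 58 and 65 as G2M. The part of this unequal mix in the Phgdh ratio was not tested. Psat1 over all cells was at 25.8 and 28.7 CPM, a log2 ratio of 0.15 (0.00 to 0.30), and within the proliferating-like cluster the ratio was 0.00 (-0.17 to 0.17). Outside cluster 4, each within-cluster interval of these 2 genes included 0 except that of Phgdh in the proliferating-like cells.

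Shmt2 and Mthfd2 encode the mitochondrial enzymes that take a carbon unit from serine and carry it on folate. In the proliferating-like cluster Shmt2 was at 45.2 CPM in the Lean and 46.4 CPM in the Obese library, against 13.02 to 20.9 CPM in the interferon-stimulated-like, naive- or memory-like and effector-like clusters. Mthfd2 was at 64.5 and 70.6 CPM in the proliferating-like cluster, at 31.7 and 30.3 CPM in the effector-like cluster, and at 14.5 and 16.0 CPM in the naive- or memory-like cluster. Shmt2 did not follow that order, since its naive- or memory-like level was above its effector-like level in the Lean library, 20.9 against 15.1 CPM. The log2 ratio of effector-like over naive- or memory-like cells was -0.47 (-0.87 to -0.07) for Shmt2 in the Lean library and 0.19 (-0.31 to 0.69) in the Obese library. For Mthfd2 that ratio was 1.13 (0.73 to 1.54) and 0.92 (0.47 to 1.39).

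Between libraries, Shmt2 over all cells was at 28.7 and 31.3 CPM, a log2 ratio of 0.12 (-0.02 to 0.26). Mthfd2 was at 41.4 and 47.7 CPM, a log2 ratio of 0.20 (0.09 to 0.32). Within the proliferating-like cluster the ratios were 0.04 (-0.13 to 0.21) for Shmt2 and 0.13 (-0.01 to 0.27) for Mthfd2. Among the few proliferating-like cells scored as G1, 32 Lean and 37 Obese cells, both genes were lower in the Obese library. Shmt2 was there at 83.4 CPM (38 UMIs) and 35.9 CPM (27 UMIs), and Mthfd2 at 90.0 CPM (41 UMIs) and 43.8 CPM (33 UMIs). The log2 ratios were -1.22 (-1.99 to -0.47) and -1.04 (-1.74 to -0.34). Shmt2 lies on chromosome 10 from 127517123 to 127522444 and Mthfd2 on chromosome 6 from 83305691 to 83325908, both on the minus strand.

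Xbp1 encodes a transcription factor of the unfolded protein response that raises the folding and secretory capacity of the endoplasmic reticulum (ER). It was alike in the libraries, at 30.8 CPM (856 UMIs) in the Lean and 31.4 CPM (900 UMIs) in the Obese library, with a log2 ratio of 0.03 (-0.11 to 0.16). Across states it was highest in the effector-like cells among clusters 0 to 3, at 36.0 and 40.4 CPM, and lowest in the naive- or memory-like cells, at 17.8 and 18.3 CPM. The proliferating-like cells had 31.7 and 30.7 CPM. In the dendritic-like cluster, with 9 Lean and 21 Obese cells, it was at 142 CPM (17 UMIs) and 95.4 CPM (30 UMIs). Xbp1 lies on chromosome 11 from 5520659 to 5525893 on the plus strand.

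**Figure D2:**
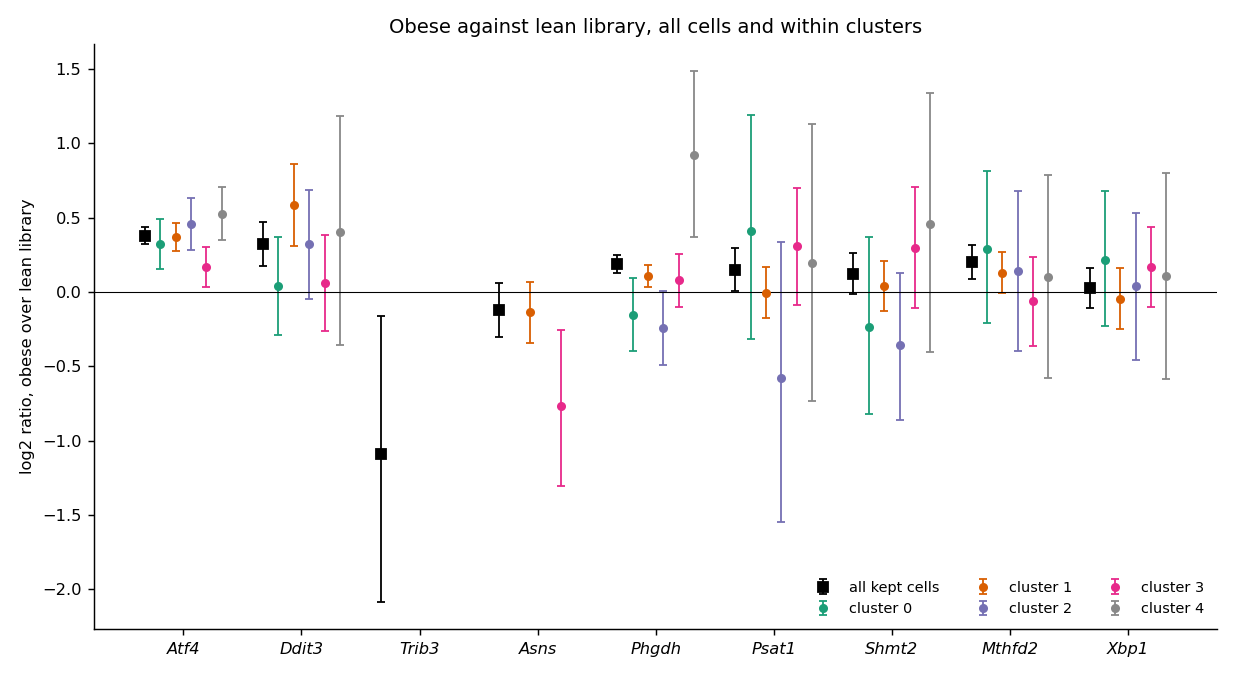
log2 ratio of CPM in the Obese over the Lean library for each gene, over all kept cells (black squares) and within clusters 0 to 4 (colored points), with exact conditional binomial 95% intervals. Groups with fewer than 10 UMIs of a gene in either library are not drawn. Atf4 lay above 0 in all 5 clusters, from 0.17 in cluster 3 to 0.53 in cluster 4, while Asns in cluster 3 lay at -0.77.

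With a limit of 0.32 on the log2 scale, chosen for counting and not as a test, 2 of the 8 genes tested, Atf4 and Ddit3, were higher in the Obese library and 0 were lower. Among all 7064 genes with at least 10 CPM in 1 library, 8.13% were higher and 4.11% lower by that limit. The limit cut close to Ddit3, whose log2 ratio was 0.32, and 1 gene passed under 7 other settings. Thinned to 2000 UMIs per cell, Atf4 (0.33) and Ddit3 (0.45) were higher by the limit and Asns (-0.50) and Shmt2 (-0.49) lower. The share of all genes past the limit was not counted after thinning. Thinned Asns was seen in only 45 Lean and 31 Obese cells, and thinned Shmt2 in 105 and 72. The 8 genes had a median log2 ratio of 0.17, against 0.04 for all genes tested, and 0.06 with the libraries weighted to the same mix of clusters. In the interferon-stimulated-like cluster 2 of 7 genes tested (Atf4 and Psat1) were higher and 0 lower, where 14% of all genes tested were higher and 10.7% lower. Psat1 passed the minimum of 10 CPM in that cluster through the Obese library alone, with 8.64 CPM (22 UMIs) and 11.5 CPM (60 UMIs), and its log2 ratio of 0.41 (-0.31 to 1.19) has an interval that includes 0. In the proliferating-like cluster 2 of 8 (Atf4 and Ddit3) were higher and 0 lower, where 8.06% of genes were higher and 5.97% lower. In the naive- or memory-like cluster 1 of 6 (Atf4) was higher and 1 (Shmt2) lower, where 13.7% of genes were higher and 12% lower. The interval of Shmt2 there, at -0.36 (-0.86 to 0.13), includes 0. In the effector-like cluster 0 of 8 were higher and 1 (Asns) lower, where 16.7% of genes were higher and 9.97% lower. Asns passed the minimum there through the Lean library alone. In cluster 4, 4 of 7 (Atf4, Ddit3, Phgdh and Shmt2) were higher and 0 lower, where 25.5% of genes were higher and 26.6% lower. There the intervals of Ddit3, at 0.41 (-0.35 to 1.18), and of Shmt2, at 0.46 (-0.40 to 1.34), include 0. At resolution 0.8 the log2 ratios in the corresponding cluster were 0.00 for Ddit3 and -1.79 for Shmt2.

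The 5 enzymes were higher in proliferating-like than in naive- or memory-like cells. Proliferating-like cells exceeded naive- or memory-like cells in Phgdh by 3.02-fold (2.70 to 3.39) in the Lean and 3.85-fold (3.36 to 4.43) in the Obese library. For Psat1 the excess was 6.56-fold (4.56 to 9.76) and 9.76-fold (5.96 to 17.2), for Mthfd2 4.44-fold (3.45 to 5.81) and 4.41-fold (3.37 to 5.88), and for Shmt2 2.16-fold (1.73 to 2.72) and 2.85-fold (2.17 to 3.80). Asns was 146-fold higher (26.1 to 5790) in the Lean and 34.1-fold higher (11.6 to 166) in the Obese library, ratios set by the 1 and 3 UMIs of the naive- or memory-like cells.

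The transcription factors did not share that pattern. Atf4 in proliferating-like over naive- or memory-like cells had a log2 ratio of 0.19 (0.05 to 0.34) in the Lean and 0.11 (-0.03 to 0.24) in the Obese library, and the values turned to -0.21 and -0.29 when mitochondrial and ribosomal protein genes were left out of the total. Xbp1 was 1.78-fold (1.40 to 2.29) and 1.68-fold higher (1.29 to 2.22) in the proliferating-like cells. At resolution 0.8 its log2 ratios were 0.26 in the Lean and 0.11 in the Obese library. Ddit3 was lower in the proliferating-like cells, with log2 ratios of -0.93 (-1.26 to -0.58) and -0.66 (-0.96 to -0.35), although in the Obese library the value was 0.12 at resolution 0.8. Of the 8 genes tested, 5 were at least 2-fold higher in proliferating-like cells in each library, and Asns and Psat1 passed the minimum of 10 CPM there through the proliferating-like cells alone. Among all genes tested, 25.1% in the Lean and 26.4% in the Obese library were at least 2-fold higher. Their median log2 ratio was 0.44 in the Lean and 0.46 in the Obese library, and the values of Atf4 lay below these medians. Shmt2 in the Lean library fell below 2-fold under some settings. Its log2 ratio was 0.63 with 5 clusters, 0.64 with the genes kept among the variable genes, and 0.71 without mitochondrial and ribosomal protein genes in the total.

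**Figure D3:**
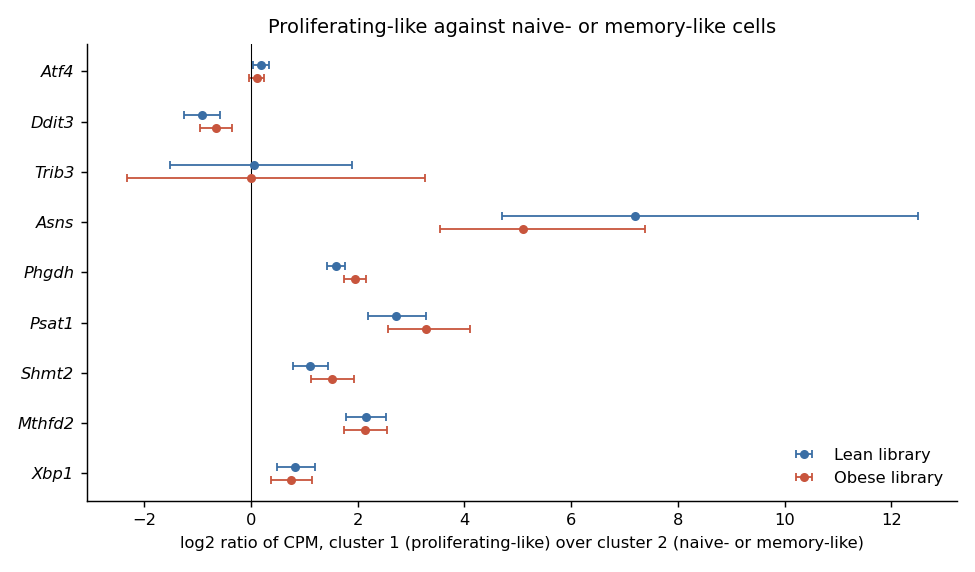
log2 ratio of CPM in cluster 1 (proliferating-like) over cluster 2 (naive- or memory-like) for each gene in the Lean (blue) and Obese (red) libraries, with exact conditional binomial 95% intervals. Asns, Phgdh, Psat1, Shmt2 and Mthfd2 lay above 1 in both libraries, while Ddit3 lay at -0.93 and -0.66.

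Cell cycle scores gave another split of the cells, into 1766 Lean and 1514 Obese cells scored as G1, 439 and 487 as S, and 251 and 288 as G2M. A class cut from such a score is a range and not a cell type, and most S and G2M cells fell into the proliferating-like cluster. Phgdh was at 79.4 CPM in G1, 216 CPM in S and 206 CPM in G2M in the Lean library, and at 80.1, 238 and 227 CPM in the Obese library. Psat1 was at 12.1, 42.5 and 41.5 CPM in the Lean and 13.02, 39.1 and 49.97 CPM in the Obese library. Shmt2 was at 18.7, 44.2 and 35.1 CPM in the Lean and 16.1, 50.02 and 37.7 CPM in the Obese library. These enzymes were thus higher in both dividing classes than in G1. Only 32 Lean and 37 Obese cells of the proliferating-like cluster were scored as G1, so the classes largely repeat the split between that cluster and the others. Within that cluster, Shmt2 and Mthfd2 of the G1 cells lay above the cluster's level in the Lean library and below it in the Obese library. Atf4 kept nearly the same level over the classes, 146, 136 and 146 CPM in the Lean and 186, 181 and 197 CPM in the Obese library. Ddit3 was at 30.5 CPM in G1 and 13.6 CPM in S in the Lean library, and at 35.9 and 21.9 CPM in the Obese library.

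The difference of Atf4 between libraries appeared in each class, with log2 ratios of 0.35 (0.26 to 0.43) in G1, 0.41 (0.30 to 0.52) in S and 0.43 (0.30 to 0.57) in G2M. That of Ddit3 was 0.24 (0.05 to 0.42) in G1, 0.69 (0.34 to 1.04) in S and 0.51 (0.14 to 0.89) in G2M. Phgdh in G1 cells was alike in the libraries, with a log2 ratio of 0.01 (-0.11 to 0.13), and in S cells it was 0.14 (0.05 to 0.23).

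**Figure D4:**
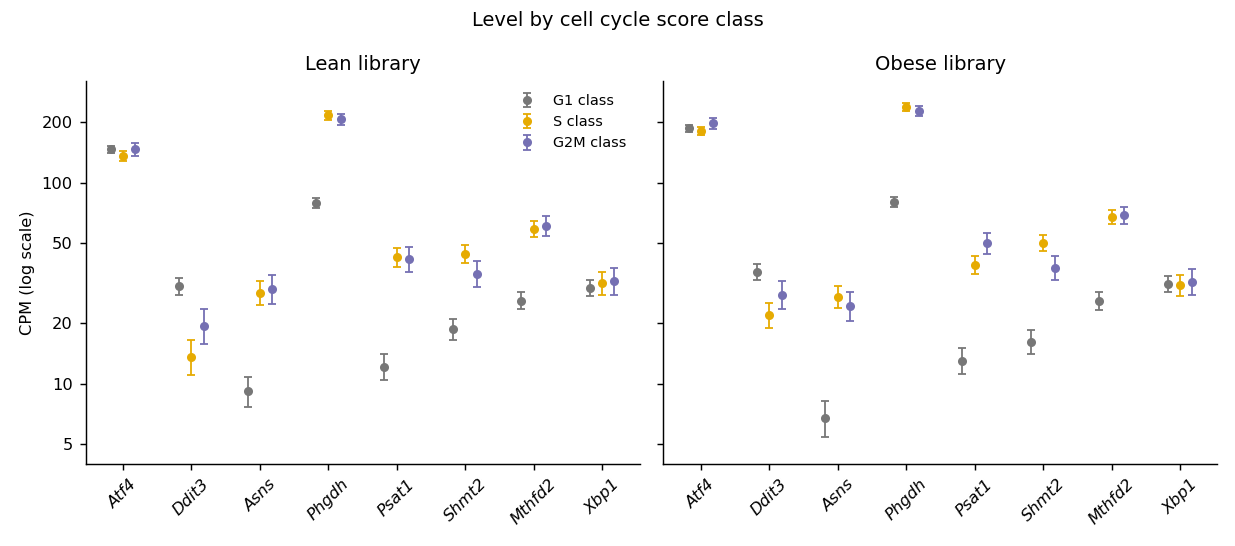
Level in CPM (log axis) of 8 of the 9 genes in cells scored as G1 (gray), S (yellow) and G2M (purple), in the Lean library (left) and the Obese library (right), with exact Poisson 95% intervals; Trib3, at 0.35 to 1.40 CPM, is not drawn. The enzymes Asns, Phgdh, Psat1, Shmt2 and Mthfd2 were higher in S and G2M than in G1, and Atf4 and Xbp1 were level.

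Counted per cell, a UMI of Atf4 was seen in 67.3% of Lean and 77.9% of Obese cells. Since the Obese cells were deeper, each cell was also thinned to 2000 UMIs, which left out 126 Lean and 112 Obese cells. The share was then 26.8% (25.0 to 28.6) and 31.8% (29.8 to 33.8). In the naive- or memory-like cells the thinned share of Atf4 was 19.2% in the Lean and 26.0% in the Obese library. Thinned shares of Ddit3 were 5.71% (4.80 to 6.73) and 7.85% (6.76 to 9.07), and in the proliferating-like cells 2.94% (1.61 to 4.88) and 6.57% (4.69 to 8.91).

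Asns had a UMI in 39.4% of Lean and 34.4% of Obese proliferating-like cells and in 0.173% and 0.716% of naive- or memory-like cells, whose median depths were 22242 and 22679 against 7466 and 7860 UMIs. Thinned, the shares were 5.66% (3.76 to 8.13) and 3.63% (2.26 to 5.50) in the proliferating-like cells. In the naive- or memory-like cells they were 0 of 579 Lean cells, which allows a share of up to 0.518% by the limit of 3 counts and 0.635% by the Clopper-Pearson interval, and 0.239% of the Obese cells. Thinned shares of Phgdh in the proliferating-like cells were 33.5% and 33.0%, and 10.7% and 13.4% in the naive- or memory-like cells. A UMI of Trib3 was seen in 1.14% of Lean and 0.655% of Obese cells, and after thinning in 0 of 2177 Obese cells, which allows a share of up to 0.138% by the limit of 3 counts and 0.169% by the Clopper-Pearson interval.

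Wider gene lists of the same pathways were read beside the 9 genes over all cells. All genes tested there had a median log2 ratio of 0.04, and 8.13% were higher and 4.11% lower in the Obese library by the same limit. The first list held Eif2s1, which encodes eIF2alpha, and the kinases and phosphatase subunits that act on eIF2alpha. Of its genes, 1 of 6 tested passed that limit upward and 0 downward, with a median of -0.00. The one was Ppp1r15a, the ATF4-induced phosphatase subunit that ends the response, at 182 and 258 CPM with a log2 ratio of 0.51 (0.46 to 0.56). Eif2ak2, the kinase that senses viral RNA, had the lowest ratio of that list, -0.19 (-0.34 to -0.04). Of other ATF4 targets and partners, 4 of 9 tested were higher and 0 lower, with a median of 0.28. Slc3a2, a subunit of amino acid transporters, had the highest ratio, 0.59 (0.53 to 0.65), from 141 to 212 CPM. Slc1a5, a glutamine transporter, had the lowest, -0.16 (-0.24 to -0.07).

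The tRNA synthetases, many of which are ATF4 targets, stayed within the limit, with 0 of 19 tested higher and 0 lower and a median of 0.06. Their extremes were Mars at 0.23 (0.04 to 0.42) and Gars at -0.18 (-0.27 to -0.09). Of the ER protein folding genes, 3 of 20 were higher and 1 lower, with a median of -0.05. Calr, an ER chaperone, was highest at 0.36 (0.31 to 0.40) and Atf6, a sensor of unfolded protein, lowest at -0.40 (-0.56 to -0.23). Of other serine, glycine and folate genes, 2 of 9 were higher and 0 lower, with a median of 0.09. Shmt1, the cytosolic counterpart of Shmt2, was highest at 0.39 (0.16 to 0.62) but passed the minimum through the Obese library alone (9.67 and 12.7 CPM), and Gldc, a subunit of the glycine cleavage system, lowest at -0.29 (-0.47 to -0.11). In proliferating-like over naive- or memory-like cells, all 9 tested genes of the serine and folate list were at least 2-fold higher in each library. Among all genes tested, 25.1% in the Lean and 26.4% in the Obese library were. Only 5 genes of that list reached 10 CPM in the naive- or memory-like cells of either library. The others tested thus passed the minimum through the proliferating-like cells alone, where they are high.

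Immediate early and heat shock genes, which respond to tissue handling as well as to stimulation, were also mostly higher in the Obese library. Of that list 13 of 18 genes were higher in the Obese library by the limit and 0 lower, with a median log2 ratio of 0.48. Among all genes tested, 8.13% were higher and 4.11% lower. Hspa1b, which encodes a heat-inducible chaperone, had the highest ratio, 1.76 (1.53 to 1.99), but passed the minimum through the Obese library alone (7.26 and 24.6 CPM). Jund had the lowest, -0.11 (-0.13 to -0.09). Within clusters 0, 1, 2, 3 and 4 the medians of the list were 0.42, 0.45, 0.34, 0.59 and 0.58, beside Atf4 at 0.32, 0.37, 0.46, 0.17 and 0.53. The medians of the other ATF4 targets and partners in the same clusters were 0.28, 0.29, 0.32, 0.49 and 0.50. All genes tested had medians from -0.01 to 0.04 in these clusters. The part of handling in the Atf4 difference was not tested, and with 1 library per diet it cannot be told apart from the diet.

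**Figure D5:**
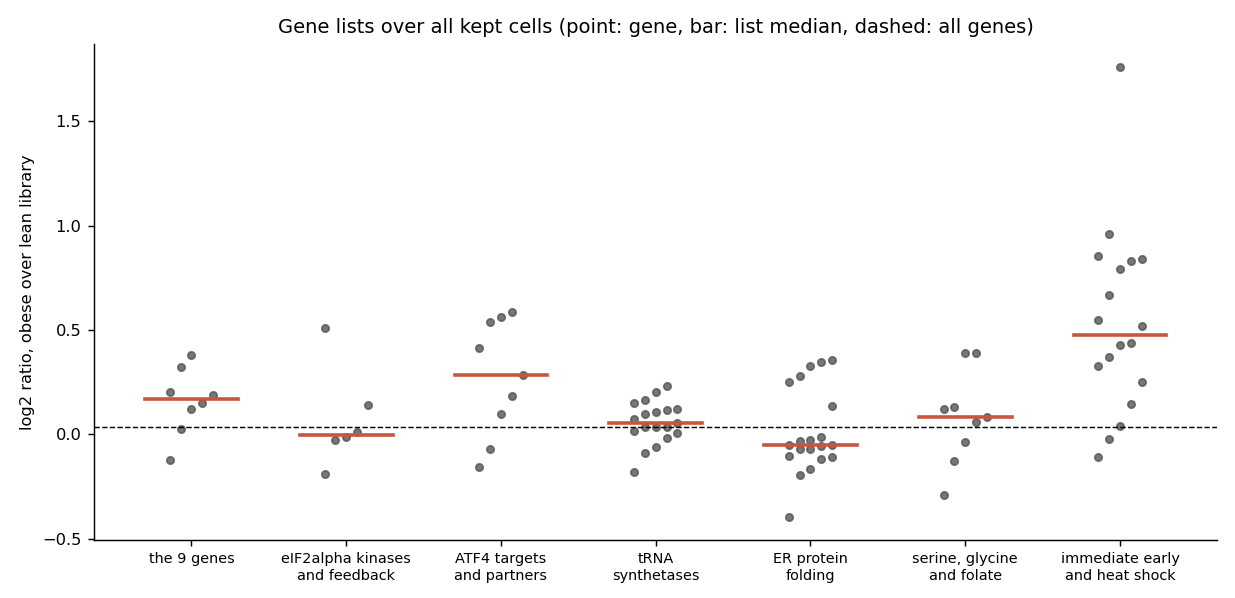
log2 ratio of CPM in the Obese over the Lean library over all kept cells for each gene with at least 10 CPM in 1 library (points), by gene list, with the median of each list (red bar) and of all genes tested (dashed line, 0.04). The immediate early and heat shock list had the highest median, 0.48, and the ER protein folding list the lowest, -0.05.

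Over the 10 groups of cluster and library (clusters 0 to 4 in each library), the levels of the 9 genes formed unlike profiles. On log2(CPM + 1), Mthfd2 and Psat1 had a Pearson correlation of 0.98, Asns and Mthfd2 0.95 and Asns and Psat1 0.94. Ddit3 correlated with these 3 enzymes at -0.58, -0.59 and -0.64, in the order Mthfd2, Psat1 and Asns, and at -0.76, -0.75 and -0.73 over the 8 groups without cluster 4. Atf4 correlated with Asns at 0.15 and with Phgdh at -0.28, and at 0.05 and -0.07 without cluster 4. The 10 groups share their 2 libraries and differ in depth, so these values describe the profiles and carry no test.

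The genes most like each profile among 4341 genes with at least 50 CPM in 1 group were Mcm6 (0.99), Pclaf and Ube2c for Mthfd2, and Ccnb2 (0.99), Ube2c and Adss for Psat1. For Shmt2 they were Tuba1b (0.96), Set and Tubb5, for Phgdh Fkbp4 (0.98), Ruvbl1 and Ddx39, and for Asns Ywhae (0.99), Ywhah and Nans. For Xbp1 they were Adam8 (0.98), Alcam and Orai1. For Ddit3 they were Mbp (0.96), Sertad1 and Cd28, and for Atf4, which was highest in cluster 4, Usp19 (0.99), Taok2 and Baiap2.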

How the data were processed

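The authors made counts of UMIs per gene and cell with Cell Ranger 6.0.2, and per the labels against mm10, and deposited them without normalization, with 2697 Lean and 2623 Obese barcodes, of which 4 are shared. Here, with Python 3.11.15, numpy 2.4.6, scipy 1.17.1 and pandas 2.3.3, a gene's UMIs were added up per library and group of cells and scaled to the group's total (CPM). The limits on mitochondrial UMIs left out 158 Lean and 213 Obese cells, and those on UMIs a further 83 and 121. Intervals are exact Poisson (CPM), exact conditional binomial (ratios) and exact Clopper-Pearson (shares), at 95%. They cover counting error only. A share of 0 is also given the limit that 3 counts would make. The 2 identifiers of Ddit3 were summed.

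Clusters were made in Seurat 5.3.0 (R 4.3.3) from 2000 variable genes without the 9 genes and the wider lists, 20 principal components and 20 neighbors, at 0.13, the lowest resolution that gave 6 clusters. They were named from marker lists, and cell cycle classes come from Seurat's own scores. Scrublet (scanpy 1.11.5) called 2 doublets in 4745 cells (0.0421%), too few to trust, so doublets were not removed. The members and lists were chosen with earlier results of these data known. Genes named are the 9, the highest and lowest ratio of each wider list (10 CPM or more in 1 library), and the 3 genes most like each profile. Leading genes of clusters and Gm26917 were chosen after their values were seen. In all, 99.6% of 32285 identifiers were found in GENCODE M21. The intervals of the ratios were checked on simulated Poisson counts, which hold no spread between cells or mice beyond counting error. Thinning was checked only for the total it leaves, and the other steps were not tested in this way.

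Alternatives were edgeR 4.0.16 TMM scaling, totals without mitochondrial and ribosomal protein genes, means over cells, thinning to 2000 or 1000 UMIs, other limits on cells and genes, and other clusterings.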

Additional observations from a re-analysis of the deposited data

Results flagged for a closer look

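Cells left out by the limits also held UMIs of these genes, and there the Obese library was higher for some of them. In the 158 Lean and 213 Obese cells with 7.5% or more mitochondrial UMIs, Atf4 was at 387 and 604 CPM, a log2 ratio of 0.642 (0.35 to 0.94). Asns there had a log2 ratio of -0.84 (-2.26 to 0.58) and Phgdh of -0.11 (-0.997 to 0.82), intervals that include 0. In the 83 Lean and 121 Obese cells with 50000 or more UMIs, Atf4 was at 135 and 181 CPM, a log2 ratio of 0.43 (0.31 to 0.55). In those deep cells Phgdh, Psat1, Shmt2 and Mthfd2 were higher in the Obese library too. Their log2 ratios were 0.276 (0.18 to 0.37), 0.306 (0.11 to 0.51), 0.461 (0.26 to 0.66) and 0.274 (0.11 to 0.44), in that order. The share of all genes higher in the Obese library was not counted for the deep cells, and their mix of cell states was not examined. The intervals of Asns, at 0.21 (-0.03 to 0.46), and of Ddit3, at -0.16 (-0.50 to 0.19), included 0. Xbp1 was lower there, at 38.8 and 32.0 CPM with a log2 ratio of -0.28 (-0.53 to -0.02). These values stand out because the cells entered no comparison above. They come from the same single library per diet, and the share of cells that hold material of more than 1 cell was not tested.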

How the results depend on the processing

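Of 360 values recomputed under an alternative, 273 stayed within counting error of their reported value, 82 moved beyond it and 5, whose reported interval excluded 0, changed direction. Another 34 values, whose reported interval included 0, changed sign and are counted among the 273 and the 82. Counting error here is the interval of the reported value alone. Thinned values rest on fewer UMIs, and their own counting error was not added, so a move there can be counting error. The numbers of genes past the limit are among the 360 and have no such interval. Atf4 over all cells kept a log2 ratio between 0.31 and 0.42 under all 11 alternatives. The number of genes past the limit of 0.32, 2 as reported, was 1 with TMM scaling, with means over cells, with thinning to 1000 UMIs, with over 1000 UMIs and under 5% mitochondrial UMIs, without the highest 5% of Scrublet scores, with the same mix of clusters and without clusters 4 and 5. The gene was Atf4, except with thinning to 1000 UMIs, where it was Asns (0.49), with Atf4 at 0.31. The number was 4 with thinning to 2000 UMIs (Atf4 and Ddit3 higher, Asns and Shmt2 lower) and 0 at a limit of 1.5-fold. With no minimum CPM it was 3, since Trib3 (-1.09) was then counted as lower. The median log2 ratio of the genes over all cells, 0.17, was 0.29 with all deposited cells and 0.060 with the same mix of clusters. In proliferating-like over naive- or memory-like cells, all genes tested had a median log2 ratio of 0.44 (Lean) and 0.46 (Obese). For the 8 of the 9 genes tested, the median was 1.35 in the Lean and 1.73 in the Obese library. It was 1.03 and 1.42 with 5 clusters, 2.06 and 2.14 at resolution 0.8, 1.04 and 1.43 with the genes kept among the variable genes, and 0.96 and 1.33 without mitochondrial and ribosomal protein genes in the total. Of values whose interval excluded 0, directions changed for Psat1 over all cells (-0.14 with thinning to 2000 UMIs), Mthfd2 over all cells (-0.18 with thinning to 1000 UMIs), Phgdh within cluster 1 (-0.076 with thinning to 2000 UMIs), Atf4 in proliferating-like over naive- or memory-like Lean cells (-0.21 without mitochondrial and ribosomal protein genes) and Ddit3 in the same contrast of Obese cells (0.12 at resolution 0.8). Of those whose interval included 0, signs changed over all cells for Asns (0.49 with thinning to 1000 UMIs, 0.11 with all deposited cells), Shmt2 (-0.49 with thinning to 2000 UMIs) and Xbp1 (-0.15 with thinning to 1000 UMIs, -0.02 with TMM scaling and with all deposited cells, -0.03 with means over cells), for Atf4 in the proliferating-like contrast of Obese cells (-0.29 without mitochondrial and ribosomal protein genes) and for Trib3 in that contrast. The other 20 lay within clusters, among them Shmt2 in cluster 4 (-1.96 with thinning to 2000 UMIs). The cause was not tested. Trib3 thinned to 2000 UMIs gives no ratio, having 0 UMIs in the Obese library, and Asns none at resolution 0.8 where a naive- or memory-like cluster held 0 UMIs. In the proliferating-like contrast, Psat1 has no ratio at resolution 0.8 in the Obese library. Asns has none in the Lean library thinned to 2000 UMIs, with 0 UMIs in the naive- or memory-like cells. Within some clusters Trib3 has none either. With the genes kept among the variable genes no resolution gave 6 clusters, so the resolution of 0.13 was used, which gave 5. Thinning leaves few UMIs of Asns, Psat1 and Trib3, and depth limits them most. No paired analysis was possible because there was 1 library per diet and the labels give no replicate numbers.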
